A study of Mus musculus with 5 samples.

Results

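The genes described here encode the extracellular and cell-surface metalloproteases of the MMP, ADAM and ADAMTS families, the protease-like ADAMTSL proteins and the tissue inhibitors of metalloproteases (TIMPs). Genes were taken by symbol, and those with at least 50 read counts summed over the 5 libraries were kept. This gave 51 members of the 78 genes whose symbol matched and of the 49315 genes in the count table, comprising 16 MMP, 14 ADAM, 12 ADAMTS, 5 ADAMTSL and 4 TIMP genes. All 51 are annotated as protein coding. Of the 27 genes left out, 11 had 0 counts in every library, among them Mmp7 and Mmp20.

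The samples were lung endothelial cell isolates, 2 from mice with a TET2 knockout restricted to endothelial cells (TET2KO) and 3 from wild-type (WT) mice. Angiotensin II, the pressor hormone of the renin system, had been infused into every animal for 28 days, so there was no untreated control. TET2 oxidises 5-methylcytosine in DNA, mostly at CpG dinucleotides, and is one route to DNA demethylation. The labels did not give the Cre driver, the deleted exons, the age or sex of the mice, the isolation method or whether each library came from its own animal. The p-values therefore measured the spread between these libraries, which may be partly technical.

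MMPs are zinc proteases that cut collagens, laminins and other matrix proteins, and most are secreted or membrane-anchored as inactive precursors. ADAMs are membrane proteases that release the outer domains of cell-surface proteins such as Notch receptors, cytokine precursors and adhesion molecules. ADAMTS proteases are secreted and cut proteoglycans, procollagens, fibrillin-associated proteins or von Willebrand factor, while ADAMTSL proteins share their ancillary domains but lack the protease domain. TIMPs bind the active site of these enzymes, and the balance between TIMPs and proteases is a textbook determinant of vessel wall remodelling under angiotensin II.

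Library totals ranged from 27346804 to 35440257 counts. Tet2 itself, counted over the whole gene, stood at 139 and 162 CPM (read counts scaled to library totals with TMM factors) in the TET2KO libraries, against 141, 174 and 131 CPM in the WT libraries, so these counts did not check the genotype labels. The 16 endothelial markers summed to 6681 and 7026 CPM in TET2KO and to 4006, 3386 and 5213 CPM in WT, and none of them was at 0. Their groups did not overlap, and their part in the results below was not tested except by the scaling given with them. Ptprc, the leukocyte antigen CD45, was also read, and stood at 1206 and 1164 CPM in TET2KO and at 1513, 1206 and 1398 CPM in WT. The 9 alveolar macrophage markers in the table summed to 2199 and 4802 CPM in TET2KO, against 4535, 21080 and 1646 CPM in WT. WT replicate 2 was far above the rest, and none of the markers was at 0 in all libraries. The 10 monocyte and interstitial macrophage markers summed to 563 and 918 CPM in TET2KO, against 865, 1992 and 439 CPM in WT. Of these, Mrc1, Csf1r, Ms4a7 and Fcgr1 were highest in WT replicate 2, whereas C1qa, C1qb, C1qc, Ccr2, Cx3cr1 and Ly6c2 were lowest there. Of the 10 mesothelial markers 9 were higher in TET2KO at an unadjusted p under 0.05, each with both TET2KO libraries above WT. These 9 summed to 42.7 and 60.4 CPM in TET2KO, against 22.3, 15.8 and 17.8 CPM in WT. The remaining marker, Krt19, was highest in WT replicate 2, the library rich in alveolar macrophage markers. At the same unadjusted threshold 9 of 16 endothelial, 4 of 10 alveolar epithelial, 3 of 10 fibroblast and 2 of 10 airway epithelial markers were higher in TET2KO. So were 2 of 10 monocyte and interstitial macrophage and 2 of 8 tested neutrophil markers, where 5.19% of all tested genes were. No alveolar macrophage, lymphocyte, or pericyte and smooth muscle marker was higher. No marker of these cell types was lower, where 0.502% of all tested genes were. In such isolates fewer cells of a type and less RNA per cell cannot be told apart.

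The deposited comparison does not follow the labels. The log2 fold changes in the authors' deposited table equal, within 0.01, those of TET2KO replicates 1 and 2 joined by WT replicate 3 over WT replicates 1 and 2 for 18016 of 18019 genes. The grouping of the labels matched 495 of the 18019. Which assignment of that library is right cannot be told from the files. The labels' grouping is used here, and values without WT replicate 3 are given beside Timp3 and Adamts1, the members that table called.

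No member passed the test of TET2KO against WT. With p-values adjusted over 18727 genes by Benjamini-Hochberg, the quasi-likelihood test of edgeR called 0 of the 50 members tested, and 0% of all genes. At an unadjusted p under 0.05, 7 of the 50 members were higher in TET2KO and 0 were lower, where 5.19% of all tested genes were higher and 0.502% were lower. That count of 7 was 3 without TET2KO replicate 1 and 1 without TET2KO replicate 2. Over all genes the count at that p, in either direction, was 1065, and it was 645 and 265 in those fits. Every TET2KO library exceeded every WT library for 16 members, where 12.4% of all tested genes did so, and below all of them for 0 members, where the share of all genes was also 12.4%. The 7 members at unadjusted p under 0.05 are among those 16. DESeq2 called 0 of 49 members with an adjusted p, where 0.34% of all genes were called, and limma-voom called 0 of 50 members and 0% of all genes. By DESeq2, 8 members were higher at an unadjusted p under 0.05, where 5.68% of all genes were, and 0 were lower, where 0.555% were. The median log2 fold change of the members was 0.37, beside -0.08 for all tested genes, and 33 of the 50 were above 0.

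**Figure D1:**
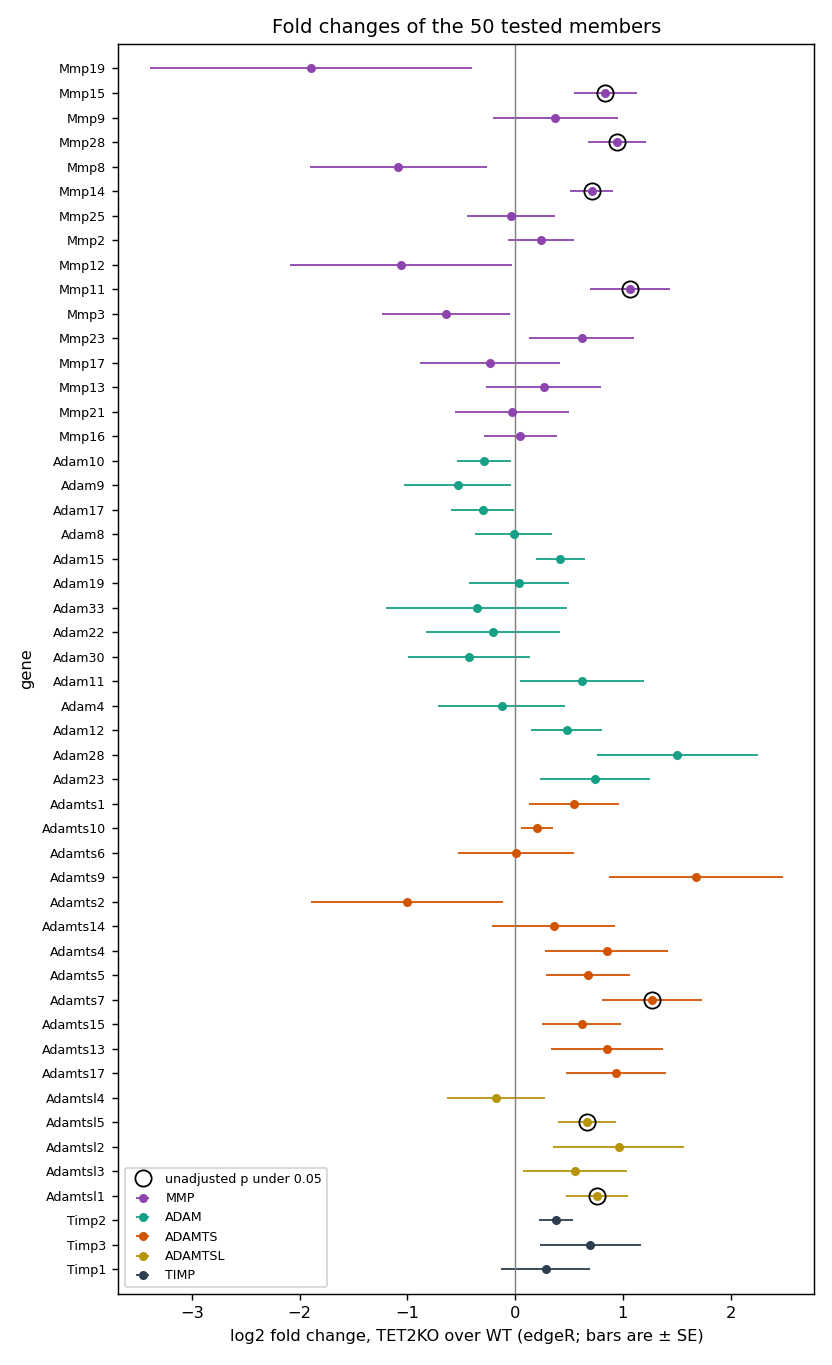
Log2 fold change of TET2KO over WT (x axis, edgeR) for each of the 50 tested members (y axis), coloured by family, with bars of ± 1 standard error. Circled genes had an unadjusted p under 0.05, and all 7 of them lie to the right of 0.

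The families differed in where their members lay. Of the 12 ADAMTS genes 11 had a log2 fold change above 0, with a median of 0.65, and of the 5 ADAMTSL genes 4 did, with a median of 0.67. The 3 tested TIMPs were all above 0, with a median of 0.38. The MMPs split, with 9 of 16 above 0 and a median of 0.14. The ADAMs had 6 of 14 above 0 and a median of -0.07, next to the median of all genes. Of all tested genes 41.6% were above 0. Under scaling to the endothelial markers every family median was below 0, at -0.12 for ADAMTS with 5 of 12 above 0, -0.10 for ADAMTSL with 2 of 5, -0.38 for TIMPs with 1 of 3, -0.61 for MMPs with 3 of 16 and -0.81 for ADAMs with 1 of 14. The median of all genes was then -0.81, and 9.18% of them were above 0. No test between families was run.

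**Figure D2:**
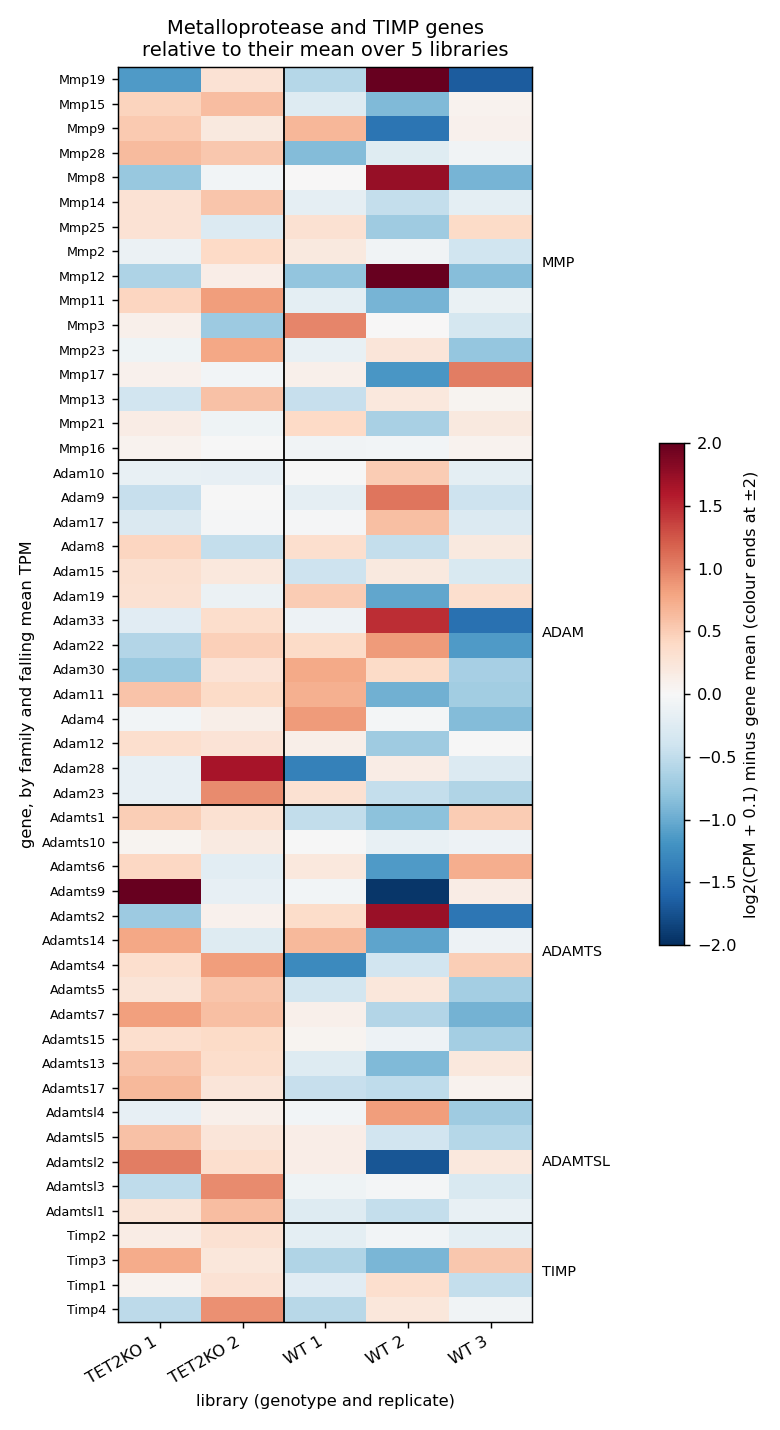
Each row is a member and each column a library, with the TET2KO libraries on the left. Colour is log2(CPM + 0.1) minus the gene's mean over the 5 libraries. Mmp19, Mmp12, Mmp8 and Adamts2 are highest in WT replicate 2, Adamts9 is highest in TET2KO replicate 1, and Timp3 and Adamts1 are low in WT replicates 1 and 2 only.

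By TPM, which corrects for gene length and so allows genes to be ranked, the most abundant member was Adamts1 at a mean of 244 TPM over the 5 libraries. Mmp19 followed at 221 TPM, but 772 TPM in WT replicate 2 carried that mean, and the other 4 libraries were at 37.2 to 156 TPM. Timp2 had 159 TPM, Adam10 119 TPM, Adamts10 83.1 TPM and Timp3 80.7 TPM. Only 20 of the 51 members reached a mean of 10 TPM, and 13 were under 1 TPM. The TPM of all TIMPs summed to 322 and 306 in TET2KO, against 193, 151 and 246 in WT. The ADAMTS sum was 502 and 437 TPM in TET2KO and 293, 179 and 444 TPM in WT, and the ADAM sum was 472 and 450 TPM in TET2KO and 465, 454 and 397 TPM in WT. The MMP sum was 188 and 294 TPM in TET2KO and 185, 855 and 131 TPM in WT. Its high value was that of WT replicate 2, the library rich in alveolar macrophage markers. The ADAMTSL sum was 58.4 and 58.3 TPM in TET2KO and 49.4, 49.7 and 31.4 TPM in WT. In TPM the TIMP and ADAMTSL sums did not overlap between groups, whereas the ADAMTS, ADAM and MMP sums did. TPM carries no TMM factor, which was 0.835 for WT replicate 2 and 1.02 to 1.06 for the other libraries. In CPM Adamtsl4, the most abundant ADAMTSL gene, stood at 62.0 in WT replicate 2, above 31.1 and 37.5 in TET2KO. The ADAMTSL separation thus depends on the scale.

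Promoter sequences are shown for the 3 membrane-type or secreted MMPs with a member-level unadjusted p under 0.05 and at least 10 TPM, and for Adamts1 and Timp3, the members that the deposited table called. They are the 250 bases before and 50 after the RefSeq start site on GRCm38.p6, 5′ to 3′ on the gene's strand, with CG dinucleotides, the sites on which TET2 mostly acts, in capitals. Methylation was not measured. The regions are chr8:95352046-95352345 (plus strand) for Mmp15, chr11:83462991-83463290 (minus) for Mmp28, chr14:54431348-54431647 (plus) for Mmp14, chr16:85803064-85803363 (minus) for Adamts1 and chr10:86300162-86300461 (plus) for Timp3.
Mmp15: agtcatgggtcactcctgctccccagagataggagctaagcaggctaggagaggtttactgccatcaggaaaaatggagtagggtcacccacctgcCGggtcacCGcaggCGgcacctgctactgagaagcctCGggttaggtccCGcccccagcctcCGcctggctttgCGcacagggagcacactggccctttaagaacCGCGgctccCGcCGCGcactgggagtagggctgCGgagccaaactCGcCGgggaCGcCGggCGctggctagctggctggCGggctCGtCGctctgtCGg
Mmp28: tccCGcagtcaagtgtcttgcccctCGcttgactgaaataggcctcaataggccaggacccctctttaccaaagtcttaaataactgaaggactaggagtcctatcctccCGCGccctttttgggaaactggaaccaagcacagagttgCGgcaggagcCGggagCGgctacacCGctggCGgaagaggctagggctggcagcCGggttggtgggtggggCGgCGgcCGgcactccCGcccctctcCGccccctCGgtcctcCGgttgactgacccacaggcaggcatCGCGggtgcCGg
Mmp14: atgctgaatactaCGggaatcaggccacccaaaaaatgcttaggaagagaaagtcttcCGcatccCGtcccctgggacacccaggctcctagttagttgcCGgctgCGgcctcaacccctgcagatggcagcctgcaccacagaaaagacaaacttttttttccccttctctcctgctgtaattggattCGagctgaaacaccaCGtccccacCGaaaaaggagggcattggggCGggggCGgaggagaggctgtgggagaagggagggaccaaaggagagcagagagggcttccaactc
Adamts1: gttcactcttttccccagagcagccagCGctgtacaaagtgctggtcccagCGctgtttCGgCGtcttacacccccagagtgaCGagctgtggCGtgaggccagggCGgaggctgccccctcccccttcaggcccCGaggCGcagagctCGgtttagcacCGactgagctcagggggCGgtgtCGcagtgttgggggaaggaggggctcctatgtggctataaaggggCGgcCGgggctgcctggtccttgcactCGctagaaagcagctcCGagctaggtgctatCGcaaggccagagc
Timp3: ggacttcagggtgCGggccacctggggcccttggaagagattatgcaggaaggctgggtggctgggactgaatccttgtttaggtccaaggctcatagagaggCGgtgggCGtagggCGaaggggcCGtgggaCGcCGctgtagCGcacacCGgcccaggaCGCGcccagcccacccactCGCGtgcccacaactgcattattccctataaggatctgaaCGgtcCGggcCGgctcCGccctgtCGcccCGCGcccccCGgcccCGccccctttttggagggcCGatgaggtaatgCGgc
The Timp3 window holds 24 CG dinucleotides, that of Mmp15 22, Mmp28 20, Adamts1 18 and Mmp14 10. Of 32851 promoter windows of this length in the RefSeq table, 20% hold at least 24, 23.1% at least 22, 26.5% at least 20, 29.7% at least 18 and 43.5% at least 10. The table had 36 windows for 32 of the 51 members, with a median of 18.5 CG, beside 7 over all windows. The members had passed a count minimum in these libraries and all windows had not, so the medians are of unlike sets. The AP-1 motif TGANTCA, which reads the same on both strands and is known from stromelysin and collagenase promoters, is in none of the 5 windows, in 4 of the 36 member windows and in 7.81% of all windows.

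Among the inhibitors, Timp2 and Timp3 supplied nearly all TIMP transcripts. Timp2, which inhibits MMPs and also takes part in the activation of pro-MMP2 by Mmp14, stood at 201 and 225 CPM in TET2KO and at 158, 175 and 159 CPM in WT. The groups did not overlap, and the log2 fold change of 0.38 (SE 0.16) missed the threshold (edgeR adjusted p = 0.875). Under endothelial marker scaling its direction turned, to -0.38. Per 1000 reads of the endothelial markers Timp2 had 30.1 and 32.0 reads in TET2KO, against 39.5, 51.6 and 30.5 reads in WT, and the groups overlapped. Timp3, the matrix-bound TIMP that also inhibits ADAM17 and the aggrecanases, stood at 290 and 202 CPM in TET2KO and at 113, 92.0 and 250 CPM in WT. The groups overlapped because WT replicate 3 lay between the TET2KO libraries, and the log2 fold change was 0.70 (SE 0.47; edgeR adjusted p = 0.875). Without WT replicate 3 it was 1.30, still short of the threshold (edgeR adjusted p = 0.45), and without TET2KO replicate 1 it was 0.41. Timp1, an inducible inhibitor, was low, at 0.876 and 1.03 CPM in TET2KO and 0.701, 1.08 and 0.572 CPM in WT, with overlapping groups. Timp4 just passed the count minimum with 52 counts, 6 and 21 of them in TET2KO and 5, 11 and 9 in WT, and was the 1 member that the low count filter of edgeR removed. Timp1, Timp3 and Timp4 each lie inside a synapsin gene on the opposite strand (Syn1, Syn3 and Syn2). Exons overlap for Timp3 and Timp4, but not for Timp1. As no strand setting is stated for the counting, reads from these shared stretches cannot be assigned with certainty. Syn3 had 310 counts over all libraries and Timp3 29904, while Syn2 had 64 and Timp4 52.

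Adamts1 and Timp3 were the 2 members in the authors' deposited short table of 217 genes. In the authors' deposited table Adamts1 had a log2 fold change of 1.10 (adjusted p = 0.000755) and Timp3 one of 1.29 (adjusted p = 0.000755). Of the 37 members with an adjusted p in the authors' deposited table, these 2 were under 0.05 with a fold change above 0, where 1.45% of all genes in it were, and 0 were under 0.05 with one below 0, where 0.709% were. That table sets WT replicate 3 with the TET2KO libraries, as described above.

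Adamts1, a secreted protease of versican and other proteoglycans with antiangiogenic activity, stood at 491 and 433 CPM in TET2KO and at 250, 199 and 500 CPM in WT. WT replicate 3 was the highest of all 5 libraries, and the log2 fold change by the labels was 0.55 (SE 0.42; edgeR adjusted p = 0.875). Without WT replicate 3 it was 1.07 (edgeR adjusted p = 0.45), and without WT replicate 2 it was 0.32. Per 1000 reads of the 16 endothelial markers, Adamts1 had 73.5 and 61.7 reads in TET2KO, against 62.4, 58.9 and 95.9 reads in WT. Timp3 had 43.5 and 28.8 reads per 1000 in TET2KO, against 28.3, 27.2 and 48.0 in WT. On this scale the groups overlapped for both genes, TET2KO replicate 2 lay close to WT replicates 1 and 2, and WT replicate 3 was the highest library. The log2 fold changes under endothelial marker scaling were -0.10 for Adamts1 and 0.07 for Timp3. Adamts1 lies on chromosome 16 (85793827 to 85803113, minus strand, GRCm38) 53060 bases from Adamts5, and Timp3 on chromosome 10 (86300372 to 86349506, plus strand).

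**Figure D3:**
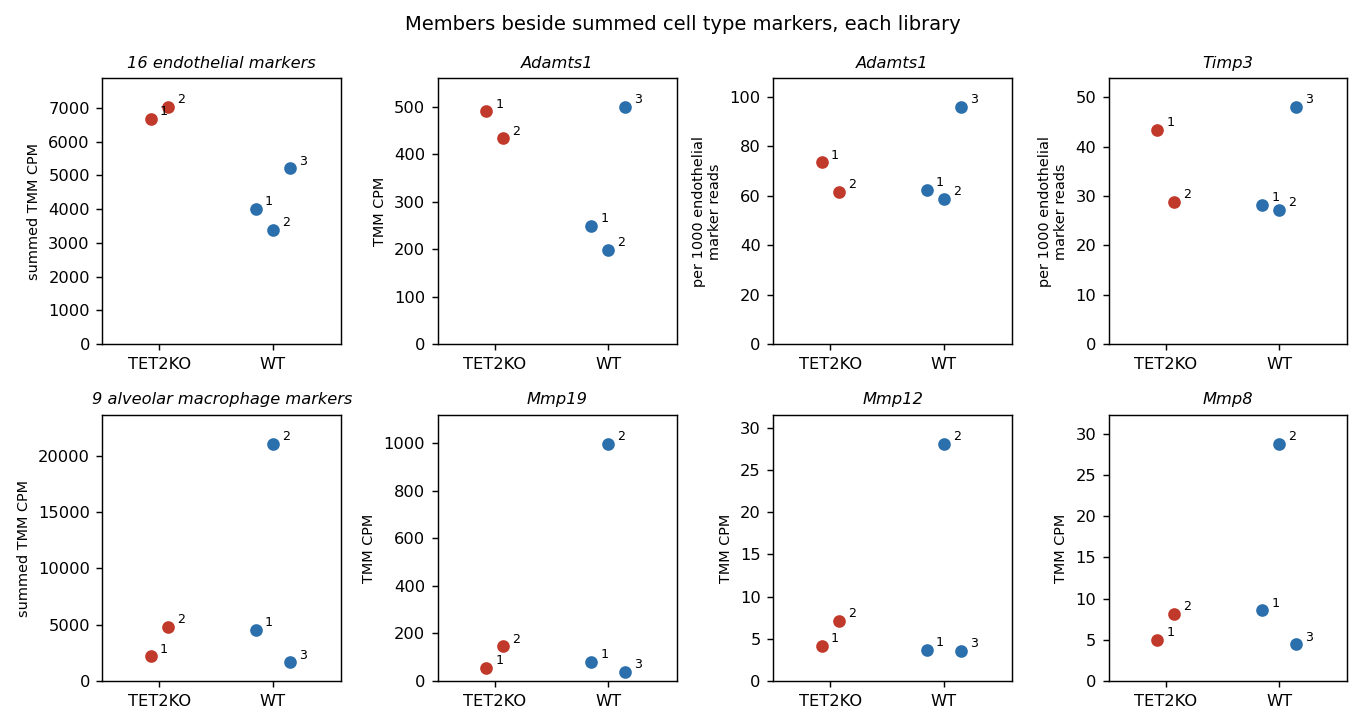
Values in each library (points, numbered by replicate; TET2KO left of WT) of summed endothelial and alveolar macrophage markers, of Adamts1, Mmp19, Mmp12 and Mmp8 in CPM on TMM-scaled totals, and of Adamts1 and Timp3 per 1000 endothelial marker reads. The endothelial markers are separate between groups, at 6681 and 7026 CPM in TET2KO and 3386 to 5213 CPM in WT, while Adamts1 and Timp3 per endothelial read overlap. Mmp19, Mmp12 and Mmp8 peak in WT replicate 2, as the summed alveolar macrophage markers do.

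Of the MMPs, 2 membrane-anchored and 2 secreted ones had an unadjusted p under 0.05. Mmp14 (MT1-MMP), a collagenase of the cell surface and the main activator of pro-MMP2, stood at 18.2 and 21.9 CPM in TET2KO and at 13.1, 10.7 and 13.0 CPM in WT. Mmp15 (MT2-MMP), a close relative, stood at 43.0 and 48.8 CPM in TET2KO and at 26.5, 17.2 and 33.4 CPM in WT. The groups did not overlap in either gene. The log2 fold change was 0.71 (SE 0.20; edgeR unadjusted p = 0.0125, adjusted p = 0.778) for Mmp14 and 0.84 (SE 0.30; edgeR unadjusted p = 0.032, adjusted p = 0.832) for Mmp15. Leaving out 1 library at a time kept Mmp14 between 0.57 and 0.83, with the lowest value without TET2KO replicate 2. Under endothelial marker scaling Mmp14 was at -0.02 and Mmp15 at 0.15.

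Among secreted MMPs, Mmp28 (epilysin), a protease of epithelia and macrophages, stood at 25.8 and 24.2 CPM in TET2KO and at 9.04, 14.0 and 15.8 CPM in WT. Its TET2KO libraries were close together and well above WT, with a log2 fold change of 0.95 (SE 0.27; edgeR unadjusted p = 0.0144, adjusted p = 0.778). Mmp28 was between 0.75 and 1.14 with any 1 library left out and at 0.22 under endothelial marker scaling, the exons of Mmp28 overlapping those of a gene on the opposite strand that had 846 counts. Mmp11 (stromelysin-3), which is activated inside the cell by furin, was at 3.29 and 4.42 CPM in TET2KO and at 2.10, 1.22 and 2.19 CPM in WT, a log2 fold change of 1.07 (SE 0.37; edgeR unadjusted p = 0.0294, adjusted p = 0.819). Under endothelial marker scaling Mmp11 was at 0.37. Its exons overlap those of Chchd10 on the opposite strand, which had 2041 counts against 415 for Mmp11, so the reads of this pair too cannot be assigned with certainty. Airway epithelial markers summed to 480 and 1247 CPM in TET2KO, against 307, 592 and 305 CPM in WT, and alveolar epithelial markers to 695 and 1037 CPM in TET2KO, against 909, 487 and 344 CPM in WT. Both sums overlapped between groups. Single markers did not all overlap, Ager of type 1 alveolar cells being at 29.4 and 55.8 CPM in TET2KO and 22.2, 18.7 and 19.0 CPM in WT. The part of epithelium in the values of Mmp28 and Mmp11 was not tested.

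The gelatinases, which digest denatured collagen and basement membrane, showed no such separation. Mmp2 stood at 4.95 and 7.11 CPM in TET2KO and at 6.20, 5.10 and 4.04 CPM in WT, a log2 fold change of 0.24 (SE 0.31). Mmp9, the gelatinase stored in neutrophil granules, stood at 25.0 and 19.8 CPM in TET2KO and at 27.4, 6.22 and 18.3 CPM in WT, a log2 fold change of 0.37 (SE 0.58) on which WT replicate 2 weighed. The groups overlapped in both. Neutrophil markers summed to 250 and 351 CPM in TET2KO, against 336, 704 and 209 CPM in WT, so the sum was highest in WT replicate 2, where Mmp9 was lowest. Single markers went both ways. Trem1, at 87.2 and 163 CPM in TET2KO and 112, 393 and 66.1 CPM in WT, made up most of that sum in WT replicate 2 only. Retnlg, at 87.6 and 31.0 CPM in TET2KO and 122, 19.3 and 76.2 CPM in WT, was lowest in WT replicate 2, as Mmp9 was. The part of neutrophils in the Mmp9 values was not tested.

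**Figure D4:**
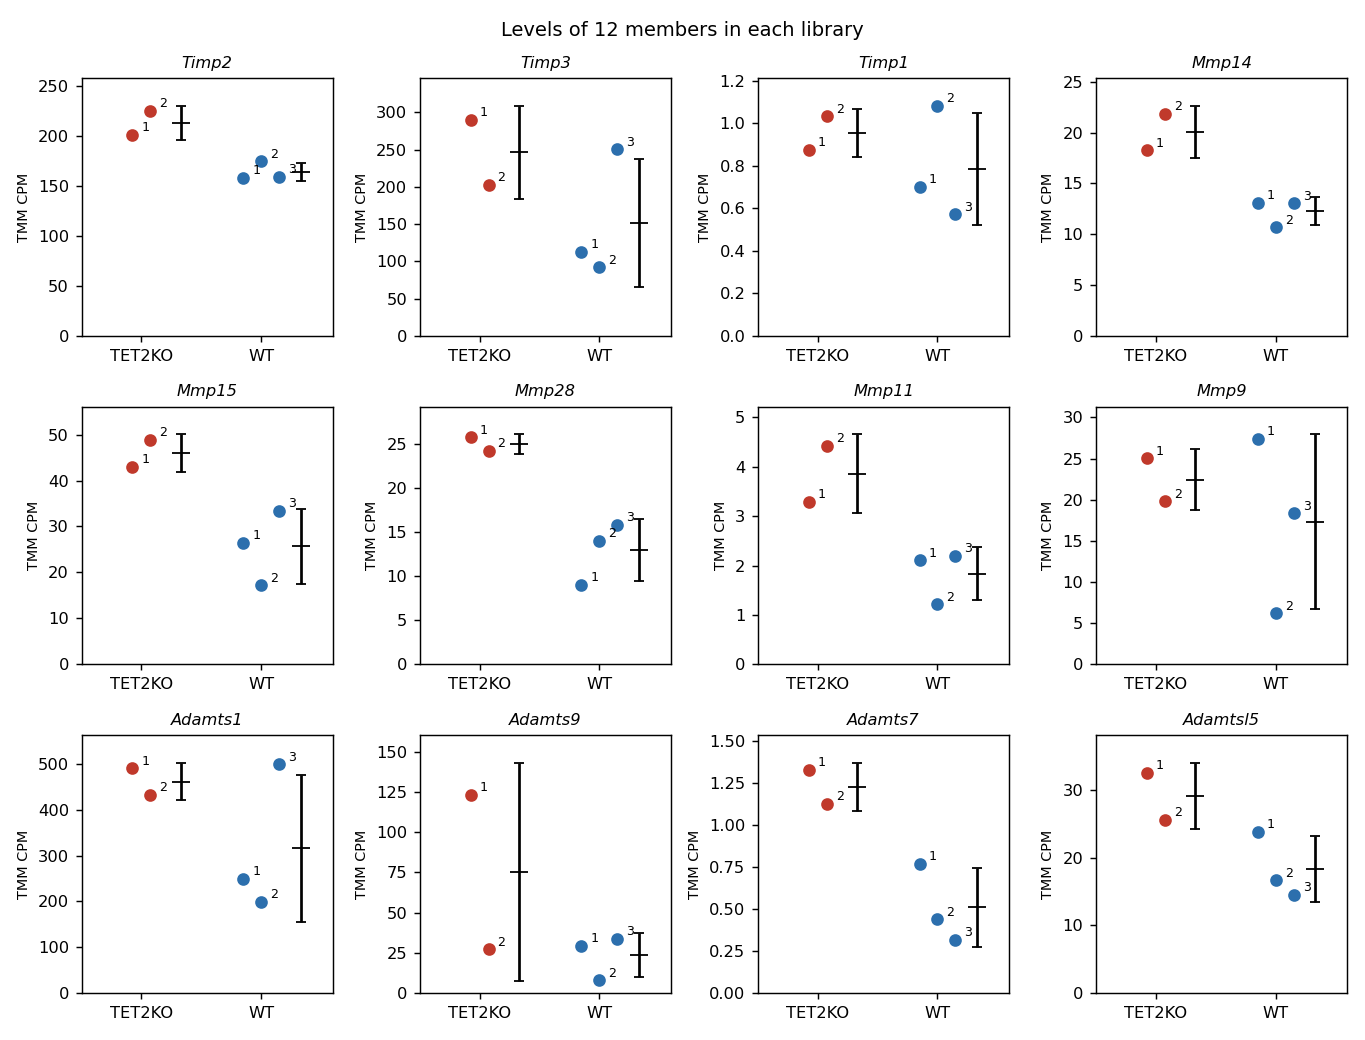
CPM on TMM-scaled totals of 12 members in each library, with points numbered by replicate, TET2KO left of WT, and a bar at the mean ± SD (n = 2 TET2KO and 3 WT). Timp2, Mmp14, Mmp15, Mmp28, Mmp11, Adamts7 and Adamtsl5 have both TET2KO points above all WT points, and in Adamts1 and Timp3 the point of WT replicate 3 lies among or above the TET2KO points.

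Mmp19, a secreted protease of basement membrane proteins, had the lowest log2 fold change of all members, -1.90, but with an SE of 1.49. It stood at 54.3 and 146 CPM in TET2KO and at 80.1, 999 and 37.3 CPM in WT. WT replicate 2 was 14.9 times the median of the other libraries, and without it the log2 fold change was 0.81, above 0. Mmp12, the macrophage elastase, had 4.20 and 7.11 CPM in TET2KO and 3.71, 28.2 and 3.56 CPM in WT. Mmp8, the collagenase of neutrophils, had 4.98 and 8.17 CPM in TET2KO and 8.59, 28.8 and 4.45 CPM in WT. Adamts2, an enzyme that removes the amino-terminal propeptide of procollagens, had 6.83 and 12.1 CPM in TET2KO and 14.8, 38.0 and 4.13 CPM in WT. Mmp12, Mmp8 and Adamts2, chosen after their values were seen, were also highest in WT replicate 2. In that library the alveolar macrophage markers reached 21080 CPM. Of all tested genes 35% were highest there, and of the 50 tested members 22%. The part of macrophages in these values was not tested. Without WT replicate 2 the log2 fold changes of Mmp12, Mmp8 and Adamts2 were 0.67, 0.05 and 0.04. Mmp12 and Mmp8 sit with Mmp13 and Mmp3 in a cluster on chromosome 9, each within 102481 bases of the next member.

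The ADAM sheddases did not separate by genotype. Adam10, which cuts Notch receptors and VE-cadherin, stood at 158 and 156 CPM in TET2KO and at 173, 249 and 153 CPM in WT, a log2 fold change of -0.29 (SE 0.25; edgeR adjusted p = 0.875). Adam17 (TACE), which releases TNF and its receptors, stood at 112 and 134 CPM in TET2KO and at 135, 207 and 114 CPM in WT, a log2 fold change of -0.30 (SE 0.30). Adam9, a further sheddase, stood at 67.0 and 91.4 CPM in TET2KO and at 80.8, 194 and 68.7 CPM in WT, a log2 fold change of -0.53 (SE 0.50). These genes were all highest in WT replicate 2, as were 35% of all tested genes. Without that library the log2 fold changes were -0.03 for Adam10, 0.02 for Adam17 and 0.11 for Adam9. A p that missed the threshold does not show that the sheddases were at the same level in both genotypes.

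Other ADAMs followed different libraries. Adam8, a leukocyte protease, stood at 106 and 56.7 CPM in TET2KO and at 99.1, 56.7 and 90.5 CPM in WT. Adam19, chosen after its values were seen and known for its part in heart development, stood at 123 and 91.5 CPM in TET2KO and at 141, 48.4 and 125 CPM in WT. Both were low in TET2KO replicate 2 and WT replicate 2, the libraries in which the 10 lymphocyte markers were lowest, at 1521 and 989 CPM in TET2KO replicates 1 and 2 and 1864, 591 and 2235 CPM in WT replicates 1 to 3. The part of lymphocytes in these values was not tested. Adam15, an endothelial ADAM that binds integrins, stood at 129 and 118 CPM in TET2KO and at 76.8, 117 and 83.3 CPM in WT, with the lower TET2KO library just above WT replicate 2. Adam12, of myoblasts and fibroblasts, was lower, at 5.07 and 4.82 CPM in TET2KO and 4.31, 2.40 and 3.94 CPM in WT. Neither passed the threshold, with log2 fold changes of 0.42 (SE 0.23) for Adam15 and 0.48 (SE 0.33) for Adam12 and an edgeR adjusted p of 0.875 for both.

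Of the 12 ADAMTS proteases, 6 had both TET2KO libraries above all WT libraries, where 12.4% of all tested genes did. These were Adamts5, Adamts7, Adamts10, Adamts13, Adamts15 and Adamts17. Adamts10, which acts on fibrillin microfibrils, was by far the most abundant of them, at 139 and 152 CPM in TET2KO and 133, 121 and 124 CPM in WT, and its log2 fold change of 0.20 (SE 0.15) was the smallest. Adamts7, a protease of cartilage oligomeric matrix protein linked to smooth muscle migration, was at 1.33 and 1.13 CPM in TET2KO and 0.771, 0.439 and 0.318 CPM in WT. Its log2 fold change was 1.27 (SE 0.47; edgeR unadjusted p = 0.0368, adjusted p = 0.856). Adamts7 had 125 counts in all, and its exons overlap Tbc1d2b on the opposite strand, which had 7866, so reads of the pair cannot be told apart with certainty. Adamts5, the main aggrecanase of cartilage, was at 2.17 and 2.69 CPM in TET2KO and 1.37, 2.13 and 1.08 CPM in WT, and Adamts15, another proteoglycan protease, at 1.51 and 1.57 CPM in TET2KO and 1.23, 1.08 and 0.699 CPM in WT. The margin of Adamts5 over WT replicate 2 was small. Adamts13, the von Willebrand factor protease, was near the detection limit with 21 and 17 counts in TET2KO and 9, 5 and 15 counts in WT, a log2 fold change of 0.85 (SE 0.52). Adamts17, at 19 and 13 counts in TET2KO and 6, 6 and 11 counts in WT, lay just inside the count minimum. Adamts8, at 15 and 12 counts in TET2KO and 8, 0 and 8 counts in WT, lay just outside it with 43.

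Adamts9, a versican protease of vessels chosen after its values were seen, had the largest log2 fold change of all members, 1.68 (SE 0.81; edgeR adjusted p = 0.875). It rested on 1 library, with 123 and 27.2 CPM in TET2KO against 29.1, 7.81 and 33.6 CPM in WT. Without TET2KO replicate 1 the log2 fold change was 0.21, and TET2KO replicate 2 lay below 2 of the WT libraries. Adamts6, a relative of Adamts10, stood at 33.9 and 21.9 CPM in TET2KO and at 29.6, 11.6 and 42.0 CPM in WT, a log2 fold change of 0.01 (SE 0.54).

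Of the ADAMTSL proteins, which bind fibrillin microfibrils, Adamtsl5 stood at 32.6 and 25.7 CPM in TET2KO and at 23.9, 16.7 and 14.6 CPM in WT, a log2 fold change of 0.67 (SE 0.27; edgeR unadjusted p = 0.0495, adjusted p = 0.875). Adamtsl1 was at 3.05 and 3.95 CPM in TET2KO and 2.10, 1.79 and 2.29 CPM in WT, a log2 fold change of 0.76 (SE 0.29; edgeR unadjusted p = 0.0413, adjusted p = 0.856). Adamtsl2 was at 10.2 and 6.30 CPM in TET2KO and 5.47, 1.45 and 5.75 CPM in WT. The TET2KO libraries lay above WT in these 3 of the 5 ADAMTSL genes, where 12.4% of all tested genes had this order. Adamtsl2 in TET2KO replicate 2 exceeded WT replicate 3 only narrowly. Adamtsl4, the most abundant of them by TPM, stood at 31.1 and 37.5 CPM in TET2KO and at 33.4, 62.0 and 21.2 CPM in WT, with overlapping groups. Fibroblast markers, of cells that make many of these proteins, summed to 125 and 112 CPM in TET2KO, against 126, 60.6 and 52.7 CPM in WT. Pericyte and smooth muscle markers summed to 23.8 and 24.0 CPM in TET2KO and to 18.8, 31.4 and 14.6 CPM in WT, and both sums overlapped between groups. Of the 10 fibroblast markers 8 had a log2 fold change above 0, where 41.6% of all tested genes did. Both TET2KO libraries were above WT for 4 of the 10, where 12.4% of all tested genes had this order. Npnt, of those 4, was at 11.8 and 14.0 CPM in TET2KO and 5.54, 2.77 and 7.09 CPM in WT. Lum and Scara5 went the other way, with log2 fold changes of -0.65 and -0.66. Mesothelial Msln was at 6.22 and 11.5 CPM in TET2KO and 2.03, 1.96 and 2.57 CPM in WT. Their part in the ADAMTS and ADAMTSL values was not tested.

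The other 17 members were low, with a mean of 0.246 to 7.59 TPM, and the groups overlapped in all 17. Their log2 fold changes ran from -0.64 for Mmp3, a stromelysin, to 1.51 for Adam28, a lymphocyte ADAM, both named here as the extremes of their values. Adam28 stood at 0.695 and 2.66 CPM in TET2KO and at 0.245, 0.879 and 0.635 CPM in WT, so TET2KO replicate 2 set its value. Adam11, Adam22 and Adam23, which lack a working protease site, were among them.

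Scaling to the 16 endothelial markers moved all values down. With library factors set so that these markers had equal sums, the median of all tested genes moved to -0.81 and that of the members to -0.37. This scaling changes only the library factors and so moves most genes by similar amounts. That the members stayed above the median of all genes, by about the same distance, was therefore built in and is no test. Above 0 lay 12 of the 50 members, where 9.18% of all genes did. At an unadjusted p under 0.05, 0 members were higher, where 0.123% of all genes were, and 2 were lower, where 33.2% of all genes were. Those 2 were Adam10, at -1.09, and Adam17, at -1.11. Of the 16 members with TET2KO above all WT libraries under TMM scaling, 8 kept a log2 fold change above 0. These 16 were chosen by the same values, and no share of all genes chosen that way is given here.

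**Figure D5:**
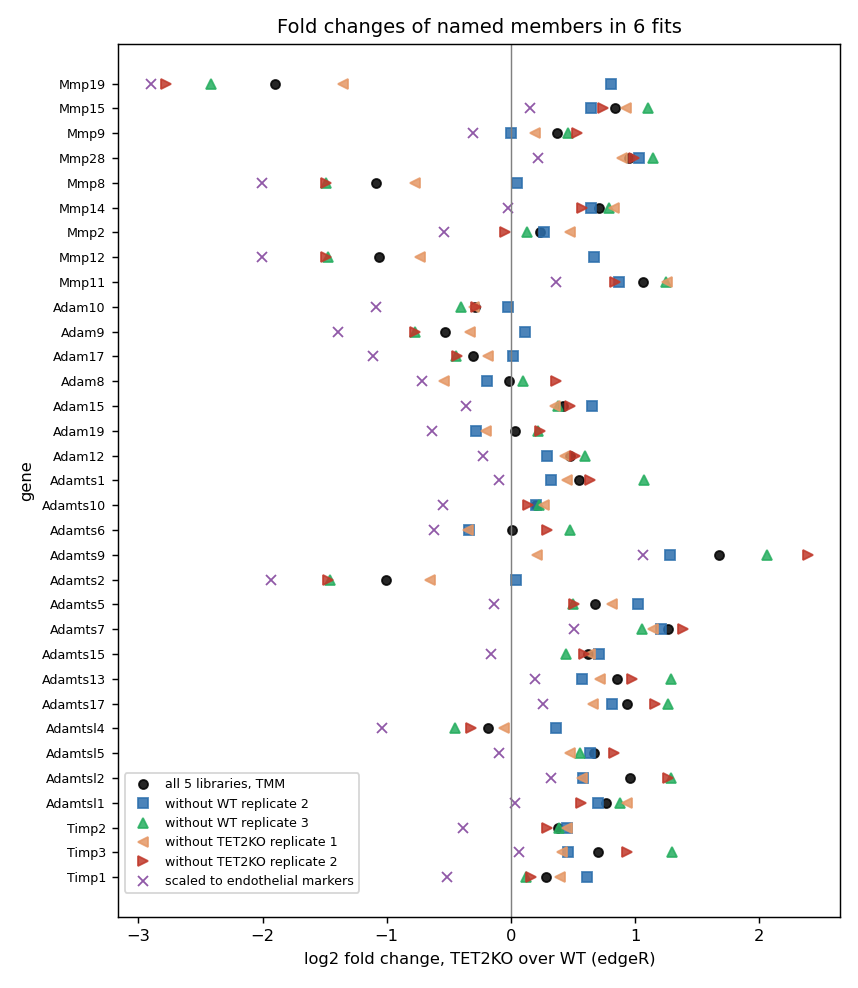
Log2 fold change of TET2KO over WT (x axis, edgeR) of each named member (y axis) in 6 fits: all libraries with TMM scaling, 4 fits that leave out 1 library each, and scaling to endothelial markers. Mmp14, Mmp15, Mmp28 and Timp2 stay above 0 in every fit that leaves out a library, Mmp19 crosses 0 without WT replicate 2, and all crosses lie to the left of the black points.

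Genes that act with the members were read from lists chosen with earlier results of these data known. At an edgeR unadjusted p under 0.05, the threshold for the counts of each list, 5.19% of all tested genes were higher and 0.502% lower. Of 11 tested astacin and related metalloproteases and their partners, 3 were higher at an unadjusted p under 0.05 and 0 lower, and the median log2 fold change was 0.73. They were Bmp1, the procollagen C-proteinase, at 32.9 and 31.4 CPM in TET2KO and 20.1, 15.5 and 18.3 CPM in WT, and the endothelial peptidases Ece1 and Ace. Of 17 tested secreted matrix substrates 4 were higher and 0 lower, with a median of 0.52. Eln, the gene of elastin, which Mmp12 degrades, led them with a log2 fold change of 1.31 (SE 0.31; edgeR unadjusted p = 0.0065, adjusted p = 0.778). Of 24 tested shed cell-surface substrates, which include endothelial markers, 7 were higher and 0 lower, with a median of 0.45. Notch4 stood at 278 and 232 CPM in TET2KO and at 123, 107 and 171 CPM in WT.

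The regulators of ADAM and MMP proteases had 2 of 18 tested genes higher and 0 lower, with a median of 0.05. They were Spock2, a matrix proteoglycan, and Tspan15, a tetraspanin partner of ADAM10. Tspan15 stood at 23.1 and 21.7 CPM in TET2KO and at 13.9, 8.25 and 15.6 CPM in WT, a log2 fold change of 0.83 (SE 0.30; edgeR unadjusted p = 0.0349, adjusted p = 0.848). The plasminogen system, which generates an activator of several pro-MMPs, had 1 of 9 tested genes higher, Serpine2, and 0 lower, with a median of 0.38. Plaur, the urokinase receptor, lay below all WT libraries in TET2KO, where 12.4% of all tested genes did so. It stood at 400 and 358 CPM in TET2KO against 465, 681 and 515 CPM in WT, a log2 fold change of -0.55 (SE 0.24). Under endothelial marker scaling Eln was at 0.52, Notch4 at 0.24, Tspan15 at 0.14 and Bmp1 at 0.11. No gene of these 5 lists passed the correction over all genes.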

How the data were processed

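RNA was measured by poly(A) RNA-seq in 2 TET2KO and 3 WT libraries. Genome GRCm38 and the tools Trimmomatic 0.36, STAR 2.5.2b, Subread 1.5.2 with featureCounts, and DESeq2 are named per the submitters' processing notes. The annotation release and strand setting were not given in the sources used here. The authors deposited raw read counts per gene, TPM values, and 2 tables with, per the file headers, p-values raw and adjusted and log2 fold changes. Those deposited tables also hold counts divided by a size factor per library, a normalized signal.

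The members and lists were chosen with earlier results of these data known. The test on counts was the quasi-likelihood F test of edgeR 4.0.16 in R 4.3.3, with TMM scaling, the filterByExpr filter and genotype as the only term. The p-values were adjusted by Benjamini-Hochberg over 18727 genes, with 0.05 as the threshold. The standard error was taken as the size of the log2 fold change over the root of F. The edgeR biological coefficient of variation was 0.339. Alternatives were DESeq2 1.42.0, limma 3.58.1 (voom, or log2(TPM + 1) and log2(TPM + 0.1)), other scalings and filters, a replicate block, and each library left out. The tests were also run on counts simulated for each gene on its own. Such counts lack the joint shift of many genes seen in WT replicate 2, so that run did not check the tests under it. Every pair of libraries differed by more than counting noise.

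Members with full values were the TIMPs, those at unadjusted p under 0.05, the 4 of highest TPM per family (ADAMTS and ADAMTSL counted together), 7 of well-known role, and those whose groups did not overlap. Where another member is named for its values, the text says so. All 51 members matched GENCODE vM21 (GRCm38), and promoters are from RefSeq.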

Additional observations from a re-analysis of the deposited data

How the results depend on the processing

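No alternative brought a member past the adjusted threshold, and of 513 single-gene values recomputed under 16 alternatives 475 kept their direction. Library totals alone moved the median of all genes to 0.06 and of the members to 0.45. Under endothelial marker scaling the member median was -0.37, with 0 members higher and 2 lower at an unadjusted p under 0.05. Of the named members 14 changed direction there, with log2 fold changes of -0.23 for Adam12, -0.36 for Adam15, -0.64 for Adam19, -0.10 for Adamts1, -0.55 for Adamts10, -0.16 for Adamts15, -0.13 for Adamts5, -0.62 for Adamts6, -0.10 for Adamtsl5, -0.024 for Mmp14, -0.54 for Mmp2, -0.31 for Mmp9, -0.51 for Timp1 and -0.38 for Timp2. Adam8, at -0.015 with TMM, was at 0.092 with library totals, 0.051 with upper quartile scaling, 0.026 with no filter, 0.17 on both TPM scales and 0.047 with the replicate block. Adamtsl4 was at 0.014 with library totals, 0.16 on log2(TPM + 1) and 0.16 on log2(TPM + 0.1). The causes were not tested.

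Leaving out 1 library at a time gave a member median of 0.24 (without TET2KO replicate 2) to 0.46 (without WT replicate 2). Members higher at an unadjusted p under 0.05 numbered 1 (without TET2KO replicate 2) to 7, with 3 without TET2KO replicate 1, and members lower numbered 0 to 1, the 1 without WT replicate 3. Log2 fold changes that crossed 0 with 1 library left out ranged from -0.45 to 0.017 for Adam17, -0.28 to 0.31 for Adam19, -0.54 to 0.37 for Adam8, -0.77 to 0.11 for Adam9, -1.47 to 0.043 for Adamts2, -0.34 to 0.48 for Adamts6, -0.45 to 0.36 for Adamtsl4, -1.49 to 0.67 for Mmp12, -2.78 to 0.81 for Mmp19, -0.045 to 0.47 for Mmp2 and -1.49 to 0.051 for Mmp8. Without WT replicate 3, Adamts13 was at 1.29, Adamts6 at 0.48, Adamtsl4 at -0.45, Adam19 at 0.22, Mmp2 at 0.13 and Timp1 at 0.13, each moved by over 1.5 times.

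Replicate numbers were shared between the groups, but the labels tie them to no animal or batch. With the replicate number as a block, 11 members were higher and 5 lower at an unadjusted p under 0.05, where 2914 of all 18727 genes were, against 1065 without the block. Of the members 0 passed the adjustment, the lowest adjusted p of a named member being 0.124, that of Timp3, Adamts9 and Adamts2. The deviations from the group means correlated at 0.22 for the pair numbered 1 and at 0.49 for the pair numbered 2. They correlated at 0.455 for TET2KO replicate 1 with WT replicate 3, which share no number. As the deviations of the 2 TET2KO libraries mirror each other, these values cannot show that the numbers mark pairs. WT replicate 3 was alone in its block and so did not inform the genotype difference of the blocked fit. DESeq2 called 60 genes over the whole table, where edgeR and limma-voom called 0, with 1065 and 1109 at an unadjusted p under 0.05. Members with few counts, such as Adamts13 with 67 and Adamts17 with 55 in all, carry counting error on top of the spread between libraries.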
